A study of Rattus norvegicus with 24 samples.

Results

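The genes described here encode Myc and the factors that bind DNA with Max or with its relative Mlx, measured in cultured rat striatal neurons. They are Myc, Mycn, Mycl, Max, Mxd1, Mxd4, Mxi1, Mnt and Mlx, and were chosen by gene name. All 9, out of 32883 genes in the deposited tables, were found once each and passed the filter on low values, which 13999 genes passed. Neonatal rat striatal neurons in primary culture were treated at day 7 in vitro with SKF, an agonist of the D1 dopamine receptor, with a bromodomain inhibitor, or with both, and total RNA was sequenced after removal of ribosomal RNA. Experiment 1 compared SKF plus JQ1, SKF, JQ1 and DMSO vehicle for 60 min. Experiment 2 compared SKF plus iBD2, SKF, iBD2 and DMSO for 60 min, and experiment 3 compared SKF plus JQ1, SKF, JQ1 and DMSO for 24 h. The cultures carry no allele or transgene in the labels, which give the same kind of culture for all groups, DMSO included. Levels of markers of other cells differed between the experiments, as given below. Each group has 2 libraries except SKF plus iBD2, of which 1 was analysed. The labels give no dose, and nothing in them says that replicates came from separate cultures, so p-values measure the spread between libraries, which may be technical.

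Myc proteins bind E-box sequences as heterodimers with Max and promote transcription of genes for growth, ribosome production and metabolism. The Mxd proteins (here Mxd1, Mxd4 and Mxi1) and Mnt compete for the same partner and for the same sites, and repress transcription by recruiting Sin3 corepressors. Mlx, a relative of Max, pairs with the glucose-sensing Mondo proteins as well as with some of the Mxd factors and Mnt. JQ1 displaces BET proteins, which read acetylated histones through a pair of bromodomains, from chromatin, and loss of MYC mRNA is the best known response to it in tumour cells. iBD2 is an inhibitor selective for the second bromodomain of BET proteins.

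Levels are FPKM (fragments per kilobase, relative to all aligned fragments) as computed by the authors, summed here over the transcripts of a gene and divided by a size factor for the library. Fold changes are on the log2(FPKM + 0.5) scale and are given with their standard error (SE). An adjusted p is that of limma with Benjamini-Hochberg adjustment over all 13999 genes, and a gene is said to have risen or fallen where it is under 0.05. Aligned sequence per library was 7.23 to 11.4 gigabases (experiment 1), 4.36 to 7.20 gigabases (experiment 2) and 6.48 to 14.9 gigabases (experiment 3), and the members were covered by an estimated 319 (Mycn) to 5133 (Mxi1) read pairs per library. Neuronal and striatal projection neuron markers summed to at least 1513 and 914 FPKM in all 23 libraries. Most of the projection neuron sum came from Gad1 (340 to 421 FPKM) and Gad2 (322 to 419 FPKM). Drd1, the gene of the D1 receptor, had 4.4 to 17.7 FPKM. The 4 endothelial markers found summed to at most 0.223.

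Max, the shared partner, had the highest level of the network. Its median over the 23 libraries was 36.0 FPKM, with a range of 32.6 to 39.5, and its highest library was 1.21 times its lowest. In the 6 DMSO libraries of the 3 experiments the medians were 36.2 FPKM for Max (32.6 to 38.9), 27.2 for Mxi1 (22.5 to 27.9), 17.0 for Mlx (16.01 to 18.4), 16.4 for Myc (13.7 to 18.9), 15.05 for Mxd4 (13.9 to 16.8), 10.8 for Mnt (9.45 to 11.7), 8.51 for Mycl (7.11 to 9.25), 6.52 for Mycn (5.90 to 7.98) and 5.91 for Mxd1 (4.90 to 6.24). Mlx, Myc and Mxd4 overlapped in these libraries, and their order changed with the experiment: Myc averaged 17.9 FPKM with DMSO in experiment 1, above Mlx (16.4) and Mxd4 (15.05), and 14.1 FPKM in experiment 3, below Mlx (17.85) and Mxd4 (16.2). Mycl overlapped with Mycn, and Mycn with Mxd1, while Max, Mxi1 and Mnt did not overlap with their neighbours. Over all 23 libraries the range was 21.6 to 37.7 FPKM for Mxi1, 15.6 to 20.5 for Mlx, 5.94 to 18.9 for Myc, 12.9 to 19.2 for Mxd4, 9.15 to 15.4 for Mnt, 7.11 to 10.3 for Mycl, 4.12 to 7.98 for Mycn and 4.90 to 8.50 for Mxd1. Myc varied most, its highest library being 3.18 times its lowest. The 9 genes are spread over chromosomes 1, 4, 5, 6, 7, 10 and 14 of Rnor_6.0. Myc itself lies at chr7:102586313-102591240 on the plus strand.

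**Figure D1:**
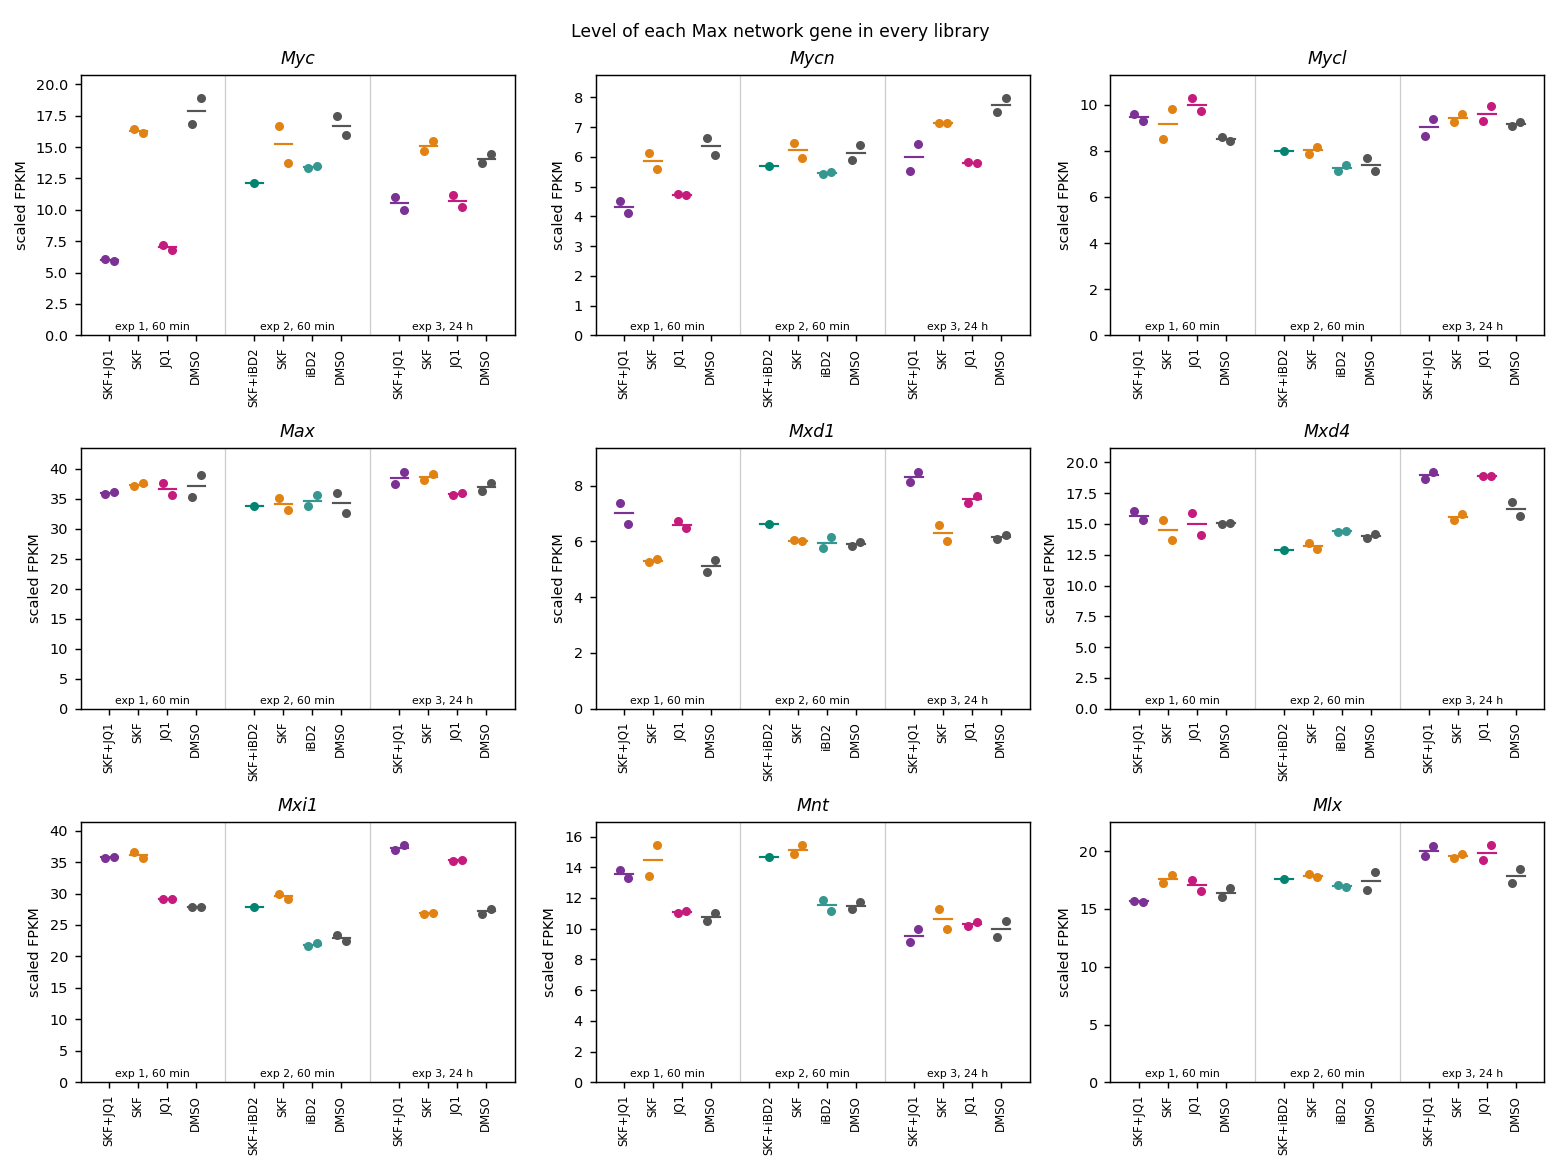
Level of each gene (scaled FPKM, linear axis from 0) in every library, by experiment and treatment. Points are libraries and bars are group means. Myc is near 6 to 7 FPKM in the 60 min JQ1 groups (5.94 to 7.21) and at 13.7 to 18.9 FPKM in the SKF and DMSO groups of experiments 1 and 2, while Max stays between 32.6 and 39.5 FPKM throughout.

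SKF for 60 min raised the repressor genes Mxi1 and Mnt and left the other 7 genes short of the threshold. Over all genes tested 3.98% were called in this comparison, which joins experiments 1 and 2. Mxi1, named as a Max interactor and a Sin3-dependent repressor, had 36.5 and 35.6 FPKM with SKF, against 27.9 and 27.9 FPKM with DMSO, in experiment 1. In experiment 2 it had 29.99 and 29.1 FPKM with SKF, against 23.4 and 22.5 FPKM with DMSO. In both experiments the SKF libraries lay above the DMSO libraries with no overlap. The log2 fold change of Mxi1 was 0.36 ± 0.03 (SE), with an adjusted p of 6.28e-08.

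Mnt, which unlike the Mxd genes is expressed in most dividing and resting cells, had 13.5 and 15.4 FPKM with SKF, against 10.5 and 11.05 FPKM with DMSO, in experiment 1. The values of experiment 2 were 14.9 and 15.4 FPKM with SKF, against 11.3 and 11.7 FPKM with DMSO. The groups did not overlap in either experiment, and the log2 fold change was 0.39 ± 0.05 (adjusted p = 5.24e-05). Taken separately, experiment 1 (1.71% of all genes called) and experiment 2 (2.37%) each called the same 2 genes and no other member, with Mxi1 at 0.37 ± 0.04 and 0.36 ± 0.04 and Mnt at 0.40 ± 0.07 and 0.38 ± 0.07. Within 1 experiment the Mnt call rested on single libraries: without SKF replicate 6 the experiment 1 value was 0.31 (adjusted p = 0.101), without DMSO replicate 1 the experiment 2 value was 0.36 (adjusted p = 0.0569), and without SKF replicate 2 it was also 0.36 (adjusted p = 0.0667). Over both experiments Mnt stayed between 0.35 and 0.44 when any 1 library was left out.

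Under SKF at 60 min Myc had 16.5 and 16.1 FPKM, against 16.9 and 18.9 FPKM with DMSO, in experiment 1. In experiment 2 it had 16.7 and 13.7 FPKM with SKF, against 17.4 and 15.9 FPKM with DMSO, and there the groups overlapped. The log2 fold change was -0.13 ± 0.06 (95% interval -0.25 to -0.01, adjusted p = 0.307). This value depended on how transcripts were counted. The deposited annotation gives Myc a 3-exon transcript of 2342 nucleotides and 2 single-exon transcripts of 766 and 760 nucleotides inside it. The 760-nucleotide transcript (chr7:102589982-102590741, Rnor_6.0) had 3.65 FPKM in SKF replicate 1 of experiment 2, which was 21.3% of the Myc level in that library, and 1.22 to 7.61% in the other 22 libraries. With the 3-exon transcript alone, an alternative chosen after the data were seen, Myc fell with SKF at 60 min by 0.24 on the log2 scale (adjusted p = 0.00224), and with limma voom on read pairs estimated from coverage it fell by 0.21 (adjusted p = 0.00595).

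**Figure D2:**
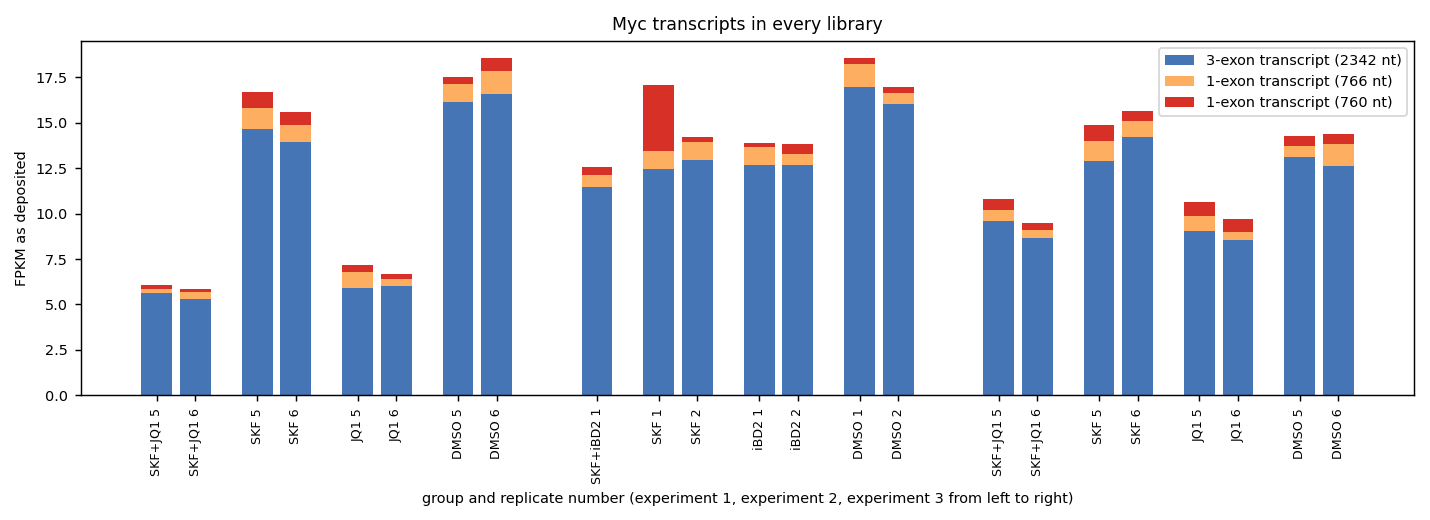
FPKM of the 3 annotated Myc transcripts in every library, as deposited and stacked, with groups in the order SKF plus inhibitor, SKF, inhibitor and DMSO within each experiment. The 760-nucleotide single-exon transcript reaches 3.65 FPKM in SKF replicate 1 of experiment 2, and the 3-exon transcript ranges from 5.33 to 17.0 FPKM.

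JQ1 for 60 min lowered Myc and Mycn and raised Mxd1, in cultures with and without SKF. The RNA came from whole cultures that also held markers of astrocytes and other cells, so these changes are not assigned to a cell type. JQ1 alone called 4.34% of all genes tested, and JQ1 added to SKF called 6.49%. Myc had 7.21 and 6.78 FPKM with JQ1, against 16.9 and 18.9 FPKM with DMSO. With SKF present it had 6.08 and 5.94 FPKM with JQ1, against 16.5 and 16.1 FPKM without. The JQ1 libraries lay far below those they were set against, with no overlap. The log2 fold change was -1.29 ± 0.08 without SKF (adjusted p = 1.32e-08), the value ranked 3 from the lowest of 13999 genes, and -1.37 ± 0.08 with SKF (adjusted p = 5.7e-09), ranked 5 from the lowest.

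Mycn, the family member best known from neural progenitors, had 4.74 and 4.72 FPKM with JQ1, against 6.65 and 6.08 FPKM with DMSO. With SKF it had 4.52 and 4.12 FPKM with JQ1, against 6.14 and 5.60 FPKM without. The groups did not overlap in either setting, and the log2 fold changes were -0.39 ± 0.07 (adjusted p = 0.00357) and -0.40 ± 0.07 (adjusted p = 0.00206). Mycl, the third paralogue, did not follow them. It had 10.3 and 9.74 FPKM with JQ1, against 8.58 and 8.43 FPKM with DMSO, a log2 fold change of 0.22 ± 0.07 that missed the threshold (adjusted p = 0.0748), and limma voom called it (0.23, adjusted p = 0.0332). With SKF present the change of Mycl was 0.04 ± 0.07 (95% interval -0.10 to 0.18).

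Mxd1, known as a Max partner that accumulates as cells leave the cell cycle, had 6.72 and 6.47 FPKM with JQ1, against 4.90 and 5.34 FPKM with DMSO. With SKF it had 7.39 and 6.61 FPKM with JQ1, against 5.26 and 5.36 FPKM without. The JQ1 libraries were higher than their comparators in both settings, with log2 fold changes of 0.34 ± 0.07 (adjusted p = 0.00387) and 0.37 ± 0.07 (adjusted p = 0.00137). The first of these missed the threshold when experiment 1 was fitted alone (0.34, adjusted p = 0.0519). It also missed it at 0.28 without DMSO replicate 5 (adjusted p = 0.0525) and at 0.31 without JQ1 replicate 5 (adjusted p = 0.0609). Max had 37.7 and 35.5 FPKM with JQ1, against 35.2 and 38.9 FPKM with DMSO, and a log2 fold change of -0.02 ± 0.06 (95% interval -0.14 to 0.10). Mxd4, Mxi1, Mnt and Mlx were between -0.01 and 0.06 with JQ1 alone. With SKF present Mlx was at -0.16 ± 0.05 (95% interval -0.27 to -0.05, adjusted p = 0.0854). There Mxd4 was at 0.11, Mnt at -0.08, Max at -0.05 and Mxi1 at -0.01, none of them called.

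The SKF response of the network was not detectably different under JQ1. None of the 9 members was called in the SKF by JQ1 interaction at 60 min, where 0% of all genes were called, and limma voom called none of the members either. Mlx had an unadjusted p under 0.05, with a log2 difference of -0.22 ± 0.07 and an adjusted p of 1. Mxi1 had 35.6 and 35.9 FPKM with SKF plus JQ1, against 29.1 and 29.2 FPKM with JQ1 alone, and its interaction was -0.07 ± 0.05 (95% interval -0.19 to 0.04). For Mnt the values were 13.8 and 13.3 FPKM with SKF plus JQ1, against 11.05 and 11.2 FPKM with JQ1 alone, with an interaction of -0.13 ± 0.10 (95% interval -0.34 to 0.09). The SKF plus JQ1 libraries were thus above the JQ1 libraries for both genes.

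**Figure D3:**
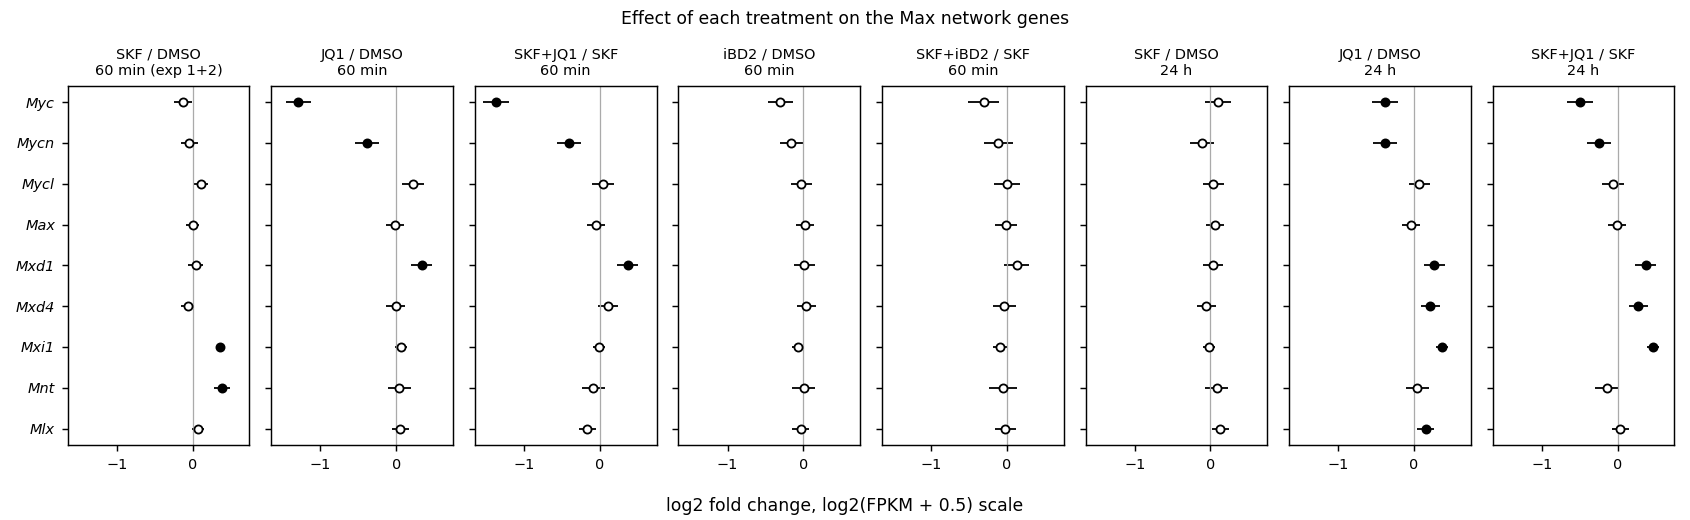
Log2 fold change of each gene in 8 comparisons, with 95% confidence intervals from the limma fit. Filled points have an adjusted p under 0.05 over all 13999 genes and open points do not. Myc is at -1.29 and -1.37 with JQ1 at 60 min and at -0.38 and -0.50 at 24 h, and Mxi1 is at 0.36 with SKF at 60 min and at 0.37 and 0.47 with JQ1 at 24 h.

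iBD2 for 60 min called no member, alone (0.186% of all genes called) or added to SKF (0.0214%), and neither did its interaction with SKF (0.0143%). Myc had 13.3 and 13.5 FPKM with iBD2, against 17.4 and 15.9 FPKM with DMSO. The groups did not overlap, and the log2 fold change was -0.30 ± 0.08 (95% interval -0.47 to -0.13, unadjusted p = 0.00156, adjusted p = 0.317). Myc was the 1 member with an unadjusted p under 0.05 in this comparison. With the 3-exon transcript alone the value was -0.33 with an adjusted p of 0.0368, so that the call depended on the transcripts counted. The single SKF plus iBD2 library had 12.2 FPKM, against 16.7 and 13.7 FPKM with SKF, a log2 fold change of -0.31 ± 0.10 (adjusted p = 0.847) in a fit that takes the lone library to vary like the other groups. No member had an unadjusted p under 0.05 in the iBD2 interaction.

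JQ1 and iBD2 were compared at the same time, 60 min, each against the DMSO group of its own experiment, at doses that the labels do not give. The experiments also differed in markers of other cells. The summed level of 6 astrocyte markers was 270 to 361 FPKM in experiment 1 and 102 to 114 FPKM in experiment 2. That of microglial markers was 26.7 to 36.2 FPKM in experiment 1 and 17.6 to 22.95 FPKM in experiment 2, that of oligodendrocyte lineage markers 38.8 to 45.9 and 23.9 to 25.9 FPKM, and that of dividing cells 4.05 to 4.95 and 2.12 to 2.69 FPKM. Mitochondrial transcripts held 8.045 to 9.79% of the aligned bases in experiment 1 and 5.31 to 5.87% in experiment 2. The part of these differences in the result was not tested. Of the 9 members, Myc alone differed (0.921% of all genes called): its JQ1 effect minus its iBD2 effect was -0.99 ± 0.11 on the log2 scale (95% interval -1.23 to -0.75, adjusted p = 0.000139). For Mxd1 the difference was 0.33 ± 0.09 (95% interval 0.13 to 0.52, adjusted p = 0.135), for Mycl 0.25 ± 0.09 (0.05 to 0.45, adjusted p = 0.387) and for Mycn -0.23 ± 0.11 (-0.46 to -0.01, adjusted p = 0.551). These intervals leave room for differences of up to 0.52 on the log2 scale that the design could not call. Max was at -0.03 ± 0.08 (95% interval -0.20 to 0.14).

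After 24 h, SKF called none of the 9 members (1.49% of all genes called). Mxi1 had 26.7 and 27.0 FPKM with SKF, against 26.8 and 27.6 FPKM with DMSO, and Mnt had 11.3 and 9.96 FPKM with SKF, against 9.45 and 10.5 FPKM with DMSO. Both genes overlapped between the groups, with log2 fold changes of -0.02 ± 0.04 (95% interval -0.10 to 0.07) and 0.08 ± 0.07 (-0.07 to 0.23). Mlx had an unadjusted p under 0.05 (0.13 ± 0.05, adjusted p = 0.391). In these libraries 4 of 6 microglial markers fell with SKF, and their summed level was 12.1 to 16.4 FPKM with SKF, against 28.9 to 34.6 FPKM with DMSO. The SKF effect on Mxi1 at 24 h minus that at 60 min in experiment 1 was -0.38 ± 0.05 (adjusted p = 0.000705), against 1.22% of all genes called, and that of Mnt was -0.32 ± 0.10 (adjusted p = 0.208). With the most abundant transcript of each gene alone, the Mxi1 difference was -0.31 with an adjusted p of 0.395, and limma voom called Mnt as well (-0.39, adjusted p = 0.0295).

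JQ1 for 24 h called 6 of the 9 members, but in this comparison 56.3% of all genes tested were called, so the count is near the background. Myc had 11.1 and 10.2 FPKM with JQ1, against 13.7 and 14.4 FPKM with DMSO. With SKF it had 11.1 and 10.01 FPKM with JQ1, against 14.7 and 15.5 FPKM without. The groups did not overlap, and the log2 fold changes were -0.38 ± 0.08 (adjusted p = 0.000701) and -0.50 ± 0.08 (adjusted p = 5.7e-05). The JQ1 effect on Myc at 24 h minus that at 60 min was 0.91 ± 0.11 (95% interval 0.67 to 1.15, adjusted p = 1.29e-05, 36.3% of all genes called), which is a smaller fall at 24 h, across 2 experiments. Mycn had 5.81 and 5.81 FPKM with JQ1, against 7.53 and 7.98 FPKM with DMSO, a log2 fold change of -0.39 ± 0.07 (adjusted p = 0.000313). For Mycn the difference between 24 h and 60 min was 0.00 ± 0.11 (95% interval -0.22 to 0.23).

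At 24 h the Max partners of the Mxd group were higher with JQ1, in a comparison where 28% of all genes rose. With JQ1 alone their fold changes ranked 1789 (Mxi1), 2907 (Mxd1) and 3617 (Mxd4) from the highest of 13999 genes. Mxi1 had 35.2 and 35.3 FPKM with JQ1, against 26.8 and 27.6 FPKM with DMSO, and with SKF present 36.9 and 37.7 FPKM with JQ1, against 26.7 and 27.0 FPKM without. Its log2 fold changes were 0.37 ± 0.04 (adjusted p = 4.64e-07) and 0.47 ± 0.04 (adjusted p = 3.22e-08), and the effect at 24 h exceeded that at 60 min by 0.31 ± 0.05 (adjusted p = 0.00034). The groups were far apart relative to their spread. Mxd1 had 7.39 and 7.65 FPKM with JQ1, against 6.08 and 6.24 FPKM with DMSO (0.27 ± 0.07, adjusted p = 0.00216), and Mxd4, another Mxd repressor, had 18.9 and 18.9 FPKM with JQ1, against 16.8 and 15.6 FPKM with DMSO (0.22 ± 0.06, adjusted p = 0.00543). The Mxd4 and Mlx calls were lost on the deposited FPKM scale (0.12, adjusted p = 0.172, and 0.06, adjusted p = 0.358), where the median of all genes moved to -0.08 and 34.3% of called genes were higher, against 49.8% after scaling.

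Mlx had 19.2 and 20.5 FPKM with JQ1 for 24 h, against 17.3 and 18.4 FPKM with DMSO (0.15 ± 0.05, adjusted p = 0.0221). The call was lost when DMSO replicate 5 (0.11, adjusted p = 0.182) or replicate 6 of JQ1 (0.11, adjusted p = 0.186) was left out. A fit of experiment 3 alone lost it too (0.14, adjusted p = 0.0675). Mlx also overlaps the opposite-strand gene Psmc3ip (1.45 to 4.01 FPKM), and no source used here says whether counting used strand. The Mxd4 call was lost without DMSO replicate 6 (0.17, adjusted p = 0.065). JQ1 added to SKF for 24 h called 5 members (56.5% of all genes called): Myc, Mycn, Mxd1, Mxd4 and Mxi1. Mycn there had 5.54 and 6.42 FPKM with SKF plus JQ1, against 7.16 and 7.14 FPKM with SKF (-0.24 ± 0.07, adjusted p = 0.0106), and the call was lost without SKF plus JQ1 replicate 5 (-0.14, adjusted p = 0.167). No member was called in the SKF by JQ1 interaction at 24 h (0.0429% of all genes called, no member with an unadjusted p under 0.05, and none called by limma voom).

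Markers of other cell types moved with JQ1 at 24 h, in a comparison where 28% of all genes rose and 28.3% fell. All 6 microglial markers fell with JQ1 alone, and their summed level was 3.67 to 5.60 FPKM with JQ1, against 28.9 to 34.6 FPKM with DMSO. It was 0.389 to 1.17 FPKM with SKF plus JQ1, against 12.1 to 16.4 FPKM with SKF, which was itself below DMSO. Aif1, Cx3cr1, Itgam and Ptprc were each listed at 0 in at least 1 of the 23 libraries, while Csf1r and C1qa were above 0 in all of them. Of 5 markers of dividing cells 3 rose with JQ1 alone, and their sum was 6.39 to 6.93 FPKM with JQ1, against 4.22 to 4.34 FPKM with DMSO. Of 6 oligodendrocyte lineage markers tested 3 rose and 2 fell, of 6 astrocyte markers 2 fell, and of 6 neuronal markers 2 fell, with the astrocyte and neuronal shares near that of all genes. In RNA from whole cultures, fewer cells of a type and less RNA per cell cannot be told apart, and the part of these markers in the results on the 9 genes was not tested.

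Set side by side, the summed level of Mxd1, Mxd4, Mxi1 and Mnt exceeded that of Myc, Mycn and Mycl in every library. The ratio of these sums was higher with JQ1 than with DMSO at both times. Its values with SKF and with DMSO overlapped at 24 h, and no test was run on it. In experiment 1 the ratio was 3.61 and 3.67 with SKF plus JQ1, 2.27 and 2.22 with SKF, 2.82 and 2.87 with JQ1, and 1.82 and 1.78 with DMSO. In experiment 2 it was 2.396 in the SKF plus iBD2 library, 2.08 and 2.27 with SKF, 2.07 and 2.04 with iBD2, and 1.75 and 1.85 with DMSO. After 24 h it was 2.89 and 2.92 with SKF plus JQ1, 1.93 and 1.83 with SKF, 2.73 and 2.78 with JQ1, and 1.95 and 1.89 with DMSO. The DMSO ratios of the 3 experiments thus lay between 1.75 and 1.95. Myc made up 31.9 to 32.4% of the Myc family sum with JQ1 at 60 min, against 52.5 to 56.6% with DMSO. These are mRNA levels, and ratios of the proteins were not measured.

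**Figure D4:**
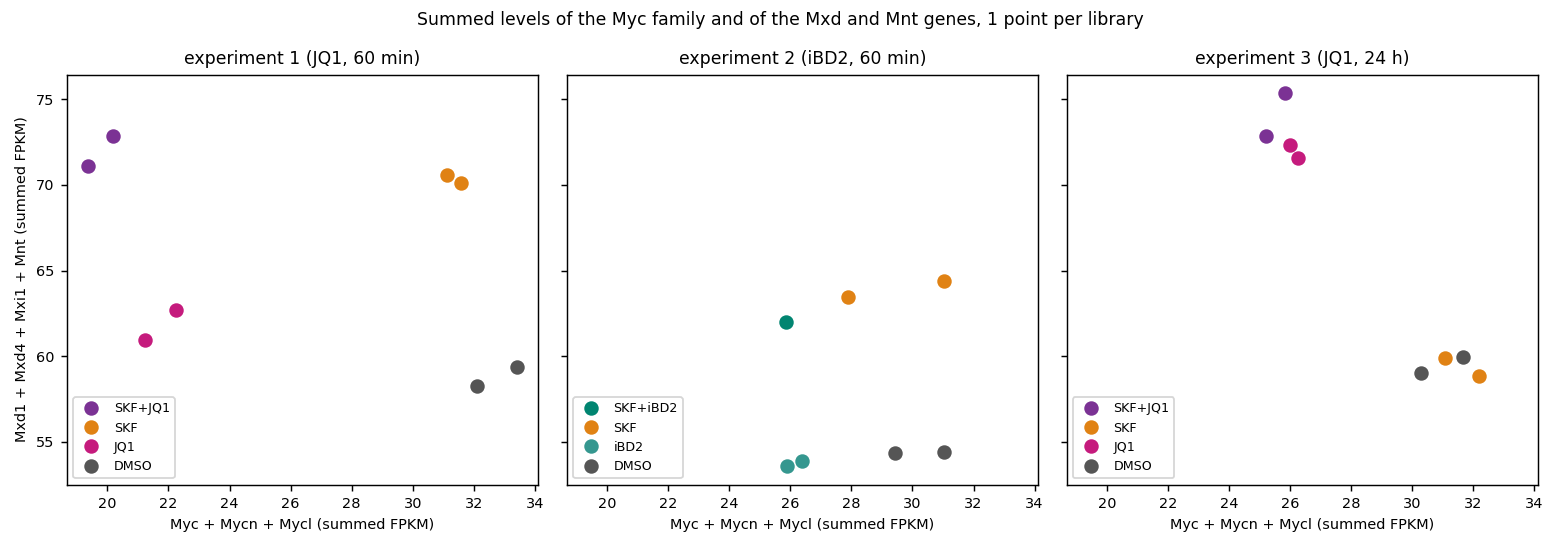
Summed FPKM of Myc, Mycn and Mycl (horizontal axis) against summed FPKM of Mxd1, Mxd4, Mxi1 and Mnt (vertical axis), 1 point per library and 1 panel per experiment. Axes do not start at 0. In experiment 1 the SKF libraries lie above DMSO, the JQ1 libraries lie to its left, and the SKF plus JQ1 libraries (ratios 3.61 and 3.67) lie both above and to the left.

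Across the 23 libraries, after each experiment was centred, Myc moved with Mycn (Pearson r = 0.85) and opposite to Mxd1 (r = -0.85), while Mxi1 moved with Mnt (r = 0.60) and Max was within 0.32 of 0 for every other member. The libraries share treatments, so these values describe the same contrasts as above. Over 11337 genes, the patterns most like that of Myc were those of Zbtb39 (r = 0.96), Rbm48, Isg20l2, Prmt6 and Trim13 (r of at least 0.94 each). Mycn was most like Rbm24, Gpr52 and Zfp710, Mxd1 most like Mknk2, Tmem189 and Med26, and Mxd4 most like Mus81, Haghl and Tbc1d20. For Mxi1 they were Nfil3, Ppm1d and Ndel1, and for Mnt they were Bcor, Arc and Arl5b, each with r of at least 0.92.

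Mxi1 has 3 annotated transcripts from 2 start regions. The one that starts furthest upstream, at position 274030978 of chromosome 1 in Rnor_6.0, held 68.8 to 91.3% of the gene's FPKM. In experiment 1 it had 33.8 and 31.3 FPKM as deposited with SKF for 60 min, against 23.7 and 24.0 FPKM with DMSO, and in experiment 2 it had 26.9 and 25.6 FPKM with SKF, against 17.1 and 20.6 FPKM with DMSO. The SKF libraries were above the DMSO libraries for that transcript in both experiments. The shorter transcript that starts at 274049676 had 2.84 and 2.91 FPKM with SKF, against 5.07 and 2.94 FPKM with DMSO, in experiment 1, and 3.18 and 3.63 FPKM with SKF, against 7.48 and 1.99 FPKM with DMSO, in experiment 2, where the groups overlapped. The 2 DMSO libraries of experiment 2 split the gene unevenly between these transcripts, which share most of their sequence.

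RefSeq (GRCr8) gave an upstream sequence for 7 of the 9 genes (Mycl, Max, Mxd1, Mxd4, Mxi1, Mnt and Mlx). Those of Mxi1 (chr1:262348392-262348641, plus strand) and Mnt (chr10:60197709-60197958, plus strand) are shown because these genes rose together with SKF at 60 min. Each is the 250 bases before the annotated start, 5' to 3', with the motifs searched in capitals. The motifs were the E-box CACGTG, at which Max dimers bind, the cAMP response element TGACGTCA, and its half-site CGTCA, which lies within the full element. Both strands were searched.
Mxi1: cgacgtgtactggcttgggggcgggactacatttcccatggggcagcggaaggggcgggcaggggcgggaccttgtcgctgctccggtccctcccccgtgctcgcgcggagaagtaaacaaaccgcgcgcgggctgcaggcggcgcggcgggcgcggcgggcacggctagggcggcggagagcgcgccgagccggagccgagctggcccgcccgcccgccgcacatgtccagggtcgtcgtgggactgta
Mnt: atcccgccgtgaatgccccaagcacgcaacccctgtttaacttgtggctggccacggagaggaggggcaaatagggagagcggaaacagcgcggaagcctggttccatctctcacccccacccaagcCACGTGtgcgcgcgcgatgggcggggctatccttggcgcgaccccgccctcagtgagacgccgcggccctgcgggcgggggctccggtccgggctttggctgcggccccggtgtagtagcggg
The Mnt window holds 1 E-box, 123 bases before the start, and the Mxi1 window holds none of the 3 motifs. The full cAMP response element was in 0 of the 7 windows and in 1.59% of 33469 rat promoter windows of this length. An E-box was in 4 of the 7 (Max, Mxd4, Mnt and Mlx) and in 5.59% of all windows. The half-site was in 1 of the 7, that of Max, and in 18.2% of all windows. The 7 windows were 55.2 to 74.8% G and C, with a median of 51.2% over all windows. A match is a description of the letters, and whether the Mxi1 window lies at the upstream or the downstream start of the deposited annotation was not established, since the builds differ.

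Genes known to act with or downstream of the network were followed in lists drawn from general knowledge. The lists were chosen with earlier results of these data known. Shares of all genes are therefore given beside the counts for scale and are no test of the lists. Of 17 cofactors none was called with SKF at 60 min (none with an unadjusted p under 0.05) or with JQ1 alone at 60 min (3 with an unadjusted p under 0.05). With JQ1 added to SKF for 60 min, where 6.49% of all genes were called, Sin3a rose (0.25 ± 0.05, adjusted p = 0.00851) and the acetyltransferase gene Kat5 fell (-0.36 ± 0.06, adjusted p = 0.000553). With JQ1 for 24 h 7 of the 17 rose and 2 fell, which is no more than the 56.3% of all genes called (median log2 fold change 0.07, against 0.01 over all genes), and with JQ1 added to SKF 6 rose and 4 fell (56.5%). Sin3a, a corepressor that Mxd proteins recruit, was among those that rose with JQ1 alone (0.66 ± 0.05, adjusted p = 3.51e-08), as was Trrap, a coactivator of Myc (0.49 ± 0.08, adjusted p = 5.06e-05). Ruvbl1, an ATPase of Myc cofactor complexes, fell (-0.41 ± 0.08, adjusted p = 0.000501). Of 3 further network genes tested, Mga (0.34 ± 0.07, adjusted p = 0.000401) and Mxd3 (0.36 ± 0.12, adjusted p = 0.0197) rose with JQ1 for 24 h, where 28% of all genes rose. With JQ1 added to SKF for 24 h Mga was the 1 of the 3 called (0.44 ± 0.07, adjusted p = 4.16e-05).

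Of 15 genes for factors linked to Myc protein turnover, 3 rose and none fell with SKF at 60 min, against 3.98% of all genes called. They were Pim1 and Pim3, kinases reported to stabilise Myc, and Usp36, a nucleolar deubiquitinase reported to do so, with log2 fold changes of 1.25 ± 0.10, 0.48 ± 0.08 and 0.52 ± 0.05. With JQ1 alone at 60 min (4.34% of all genes called) Pim1 (1.12 ± 0.15, adjusted p = 9.46e-05) and Pim3 (0.62 ± 0.12, adjusted p = 0.00343) also rose, and the ubiquitin ligase gene Fbxo32 fell (-0.50 ± 0.13, adjusted p = 0.0307). The list's median in that comparison was -0.03, against 0.01 over all genes. With JQ1 added to SKF for 60 min (6.49%) 2 rose and 3 fell: Pim1 (0.64 ± 0.15) and Pim3 (0.68 ± 0.12) were higher, and Usp36 (-0.48 ± 0.07), Fbxo32 (-0.54 ± 0.13) and the ubiquitin ligase gene Fbxw7 (-0.30 ± 0.08) were lower. At 24 h 8 of the 15 rose with JQ1 and 1 fell, near the 56.3% of all genes called in either direction. By direction 28% of all genes rose and 28.3% fell, and the list median was 0.19, against 0.01 over all genes. Stub1, a chaperone-linked ubiquitin ligase, was at 1.08 ± 0.07 (adjusted p = 1.63e-09).

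Of 39 genes reported in other systems to be activated by Myc, 1 rose and 1 fell with JQ1 alone at 60 min (4.34% of all genes called): Eif4a1, a translation initiation helicase (0.23 ± 0.06, adjusted p = 0.034), and Cdc25a, a cell cycle phosphatase (-0.37 ± 0.09, adjusted p = 0.0238). The median of the list was 0.05, against 0.01 over all genes. With JQ1 added to SKF for 60 min, where 6.49% of all genes were called, 4 rose and 1 fell (median 0.08, against 0.00 over all genes). Those that rose were Eif4a1 (0.30 ± 0.06), Odc1 (0.21 ± 0.05), Ncl (0.21 ± 0.05) and Npm1 (0.17 ± 0.04), the one that fell was Tbrg4 (-0.20 ± 0.05), and Cdc25a was at -0.14 (adjusted p = 0.488). At 24 h with JQ1 alone 13 rose and 5 fell, where 28% of all genes tested rose and 28.3% fell. Those that rose included the nucleolar genes Ncl (0.55 ± 0.05) and Ddx21 (0.48 ± 0.06) and the polyamine enzyme gene Odc1 (0.45 ± 0.05), and those that fell included Cdc25a (-0.86 ± 0.09) and the transferrin receptor gene Tfrc (-0.68 ± 0.09). With SKF at 60 min (3.98% of all genes called) 2 of the 39 activated genes rose and none fell, with a list median of 0.025, against 0.01 over all genes. Of 11 genes reported to be repressed by Myc, 3 rose and none fell with SKF at 60 min, with a list median of 0.21, against 0.01 over all genes. They were the antiproliferative gene Btg1 (0.53 ± 0.04), the stress gene Gadd45g (1.13 ± 0.12) and Cdkn1b, which encodes a cyclin-dependent kinase inhibitor (0.21 ± 0.05). With JQ1 alone at 60 min 1 of the 11 rose, the stress gene Gadd45a (0.50 ± 0.12, adjusted p = 0.0268), with JQ1 added to SKF 2 rose (Gadd45a and Btg1), and at 24 h with JQ1 alone 3 rose and 4 fell, near the share of all genes called, with the differentiation-linked gene Ndrg1 at -1.58 ± 0.10 (adjusted p = 1.04e-09).

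**Figure D5:**
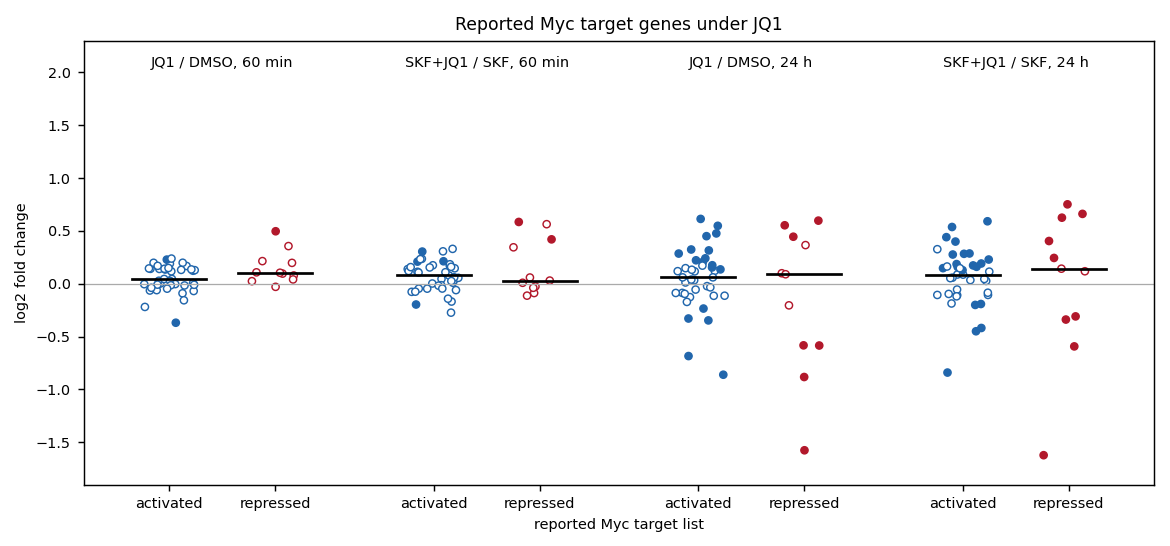
Log2 fold change of 39 genes reported as activated by Myc and 11 reported as repressed by it, under JQ1 alone or added to SKF at 60 min and 24 h. Each point is a gene, filled where its adjusted p is under 0.05, and bars are medians. The medians of the activated list with JQ1 alone are 0.05 at 60 min and 0.06 at 24 h.

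Of 5 genes reported as targets of Mondo and Mlx dimers, 1 fell and 2 rose with SKF at 60 min (3.98% of all genes called). Txnip, which encodes a thioredoxin-binding arrestin protein, fell (-0.88 ± 0.09, adjusted p = 8.97e-06), and the transcription factor genes Klf10 (0.66 ± 0.10, adjusted p = 0.000374) and Bhlhe40 (0.32 ± 0.06, adjusted p = 0.00415) rose. With JQ1 alone at 60 min (4.34%) Txnip (1.94 ± 0.13, adjusted p = 9.26e-08) and Klf10 (0.53 ± 0.14, adjusted p = 0.0418) rose. With JQ1 added to SKF for 60 min (6.49%) Txnip rose (1.91 ± 0.13) and Bhlhe40 fell (-0.45 ± 0.09). With JQ1 for 24 h 4 of the 5 rose, where 28% of all genes rose: Txnip (1.72 ± 0.13, adjusted p = 3.31e-08), its relative Arrdc4 (0.70 ± 0.07), Klf10 (0.53 ± 0.14) and Bhlhe40 (0.55 ± 0.09). Mlx itself had a log2 fold change of 0.05 ± 0.05 with JQ1 at 60 min (95% interval -0.06 to 0.17), when Txnip was higher. Whether Mlx had a part in the Txnip change was not tested.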

How the data were processed

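RNA-seq libraries of cultured rat striatal neurons were analysed from transcript tables. Per the submitters' processing notes, the tools were Trim Galore, FastQC, STAR, StringTie and DESeq2, without versions, and the build was Rnor_6.0. The authors deposited FPKM for 41078 transcripts. Coverage, the signal column of the same tables, is also the authors' value and gave aligned bases and estimated read pairs (202 bases a pair). The second SKF plus iBD2 sample is not analysed here.

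FPKM were summed per gene, divided by a median-ratio size factor (0.947 to 1.066) and taken as log2(FPKM + 0.5), which understates the change of low genes. The filter kept genes at 0.5 FPKM or more in 2 libraries with a transcript of 200 nucleotides or more. limma 3.58.1 (R 4.3.3, trend and robust) was fitted with 1 mean per group over 23 libraries (11 residual degrees of freedom) for 16 two-sided contrasts, and was tested on simulated data. No 2 libraries held identical values.

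The members and gene lists were chosen with earlier results of these data known. Genes named are the 9 members, up to 4 called genes of smallest p per pathway list and comparison, the 5 (Myc) or 3 (other members called in at least 2 comparisons) genes of highest Pearson r among 11337 tested genes with a descriptive symbol, and genes making up counts of 5 or fewer; Ncl, Ddx21, Odc1, Cdc25a, Tfrc and the cofactors named at 24 h include some chosen after their values were seen. Of 140 listed symbols 137 were in the tables. Alternatives were the deposited scale, pseudocounts of 0.1 and 1, no filter, a replicate block, each experiment alone, limma voom on estimated read pairs, each library left out, and the most abundant transcript of each gene, the last chosen after seeing the data.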

Additional observations from a re-analysis of the deposited data

Results flagged for a closer look

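Differences between the effects of 2 inhibitors or of 2 times, tested in the limma fit, passed the threshold for 5 values. The JQ1 effect on Myc minus its iBD2 effect at 60 min was -0.99 on the log2 scale (95% interval -1.23 to -0.75), where 0.921% of all genes passed. The JQ1 effect at 24 h minus that at 60 min was 0.91 for Myc (0.67 to 1.15), 0.31 for Mxi1 (0.19 to 0.42) and 0.22 for Mxd4 (0.05 to 0.40, adjusted p = 0.0471). These are 3 of 9 members, near the 36.3% of all genes that passed in that comparison. The SKF effect at 24 h minus that at 60 min in experiment 1 was -0.38 for Mxi1 (-0.50 to -0.27), where 1.22% of all genes passed. All of them compare separate experiments, which cannot be told apart from the inhibitor or the time, each relative to its own DMSO group. The Mxd4 difference was lost when any of 18 of the 23 libraries was left out (lowest value 0.14, adjusted p = 0.227), on the deposited scale (0.16, adjusted p = 0.26) and with no filter (0.22, adjusted p = 0.091).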

How the results depend on the processing

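Values were followed for each gene and comparison called with the settings used or with at least 1 alternative. Pairs of gene and comparison that were called nowhere were not counted, so their changes of direction are not included. Of 1076 values followed over 31 alternative settings, 1029 kept their direction and their side of the threshold, 34 were no longer past it, 12 passed it newly and 1 reversed. Most of these settings left out 1 library, which for most comparisons was outside the groups compared and could move the value little. The pooled count therefore says little about how far a call rests on its own libraries. The reversed value was Myc with SKF at 60 min in experiment 2, which was 0.0047 (adjusted p = 0.994) without SKF replicate 2 and -0.27 without SKF replicate 1. Myc fell in that experiment with limma voom (-0.26, adjusted p = 0.0447) and with its 3-exon transcript alone (-0.32, adjusted p = 0.00552). With the most abundant transcript of each gene, iBD2 called 1 member (Myc), and the SKF difference between 24 h and 60 min called 0 members; limma voom called 2 there (Mxi1 and Mnt). Other calls that changed stand beside the results, except that on the deposited scale Max passed the threshold with JQ1 for 24 h (-0.14, adjusted p = 0.0218), and Mnt did so with JQ1 added to SKF for 24 h (-0.22, adjusted p = 0.00929; also -0.23, adjusted p = 0.033, without SKF replicate 6). Mycl with JQ1 at 60 min passed it without SKF replicate 5 (adjusted p = 0.0395) or 6 (adjusted p = 0.0392).

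When each library was left out in turn, the members called numbered 1 to 2 for SKF at 60 min in experiment 1 and in experiment 2, 2 to 4 for JQ1 at 60 min, 5 to 6 for JQ1 at 24 h, 4 to 6 for JQ1 added to SKF at 24 h and 2 to 3 for the JQ1 difference between 24 h and 60 min. The counts of the other comparisons did not change with any omission. The interaction of SKF and iBD2 has no value without the lone SKF plus iBD2 library. The deposited scale also moved the share of called genes that were higher to 64% (79.9% scaled) for SKF at 60 min, 77.3% (87.7%) for its experiment 2, 38.1% (50.1%) for JQ1 added to SKF at 24 h, 66.7% (56.6%) for the inhibitor difference and 31.8% (47%) for the JQ1 time difference. Over all genes iBD2 called 26 with the settings used, 9 on the deposited scale and 4 by limma voom.

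The labels do not say that replicate numbers mark a shared batch. Correlations of deviations between same-numbered libraries ran from -0.268 to 0.366 (experiment 1), from -0.123 to 0.342 (experiment 2) and from -0.229 to 0.373 (experiment 3). The fit with the replicate number as a block gave a log2 fold change of Myc with JQ1 at 60 min of -1.29 and changed no call of a member. With 2 libraries a group, small changes of the lowest genes (Mycn from 319 read pairs) are the least precise.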
